A study of Mus musculus with 9 samples.

Results

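The genes that encode collagens, laminins, fibronectin and thrombospondins, the enzymes that cross-link or cut them, and the inhibitors of those enzymes were compared in mouse kidney cortex between 3 groups of 3 arrays. They were chosen by gene symbol, with earlier results of these data known. The symbols covered collagen chains (Col), laminin chains (Lam), and the ADAMTS and matrix metalloproteinase (Mmp) proteases. They also covered the Timp inhibitors, lysyl oxidases (Lox and Loxl), thrombospondins (Thbs) and fibronectin (Fn1). Of 22180 genes measured by a probe set with 1 symbol, 106 had such a symbol, and 101 of them were bright enough to be tested among 17740 genes. Where a gene had several probe sets the brightest stood for it, and a gene was tested where its mean over the 9 arrays reached 2.65, the level of the 30th percentile over all probe sets. The 5 matrix genes under that level were Adamts18, Col28a1, Mmp13, Mmp1a and Mmp1b, with means from 1.81 to 2.51. The dimmest genes just inside it were Mmp20 and Col19a1, both at 2.67, and the brightest just outside was Col28a1 at 2.51. Adamts2, Loxl2 and Mmp15 are not used here.

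All mice were 20-week-old males of the C57BLKS/J strain. The db/m mice carry 1 mutated copy of the leptin receptor gene and are lean controls, while db/db mice carry only mutated copies, overeat and become obese and diabetic. The db/db mice received saline or the traditional Chinese herbal medicine Tang-shen Formula (TSF), given into the stomach at 2.4 g/kg/day for 12 weeks, with 9 mice in each of these groups. The 3 mice measured per group are labelled as biological replicates, how they were picked from the 9 is not given, and the labels give no treatment for the db/m mice. Deposited intensities, 1 per probe set and array, were taken as log2(value + 1), and every value below is on that scale unless a fold is named. The TSF-treated db/db group (db/db+TSF) is also written as "with TSF".

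Collagens are triple-helical proteins: the fibrillar types form the fibres of the interstitium, and type IV forms the sheet of the basement membrane. Laminins are trimers of an alpha, a beta and a gamma chain that assemble beside type IV collagen, and the glomerular filter rests on such a membrane between endothelium and podocytes. Matrix metalloproteinases and ADAMTS proteases cut these proteins and their precursors, Timps block the metalloproteinases, and lysyl oxidases cross-link collagen fibres. Thickening of the glomerular basement membrane, expansion of the mesangial matrix and interstitial fibrosis are the classic matrix lesions of diabetic kidney disease.

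The arrays had medians between 3.50 and 3.61. All 6 proximal tubule markers fixed for the check of the tissue, and the 6 of 8 podocyte markers that were measured, passed the filter on low values, as did the 5 of 6 medullary markers measured, whose summed intensity ran from 4104 to 6432. The series' design text calls the tissue renal cortex and the sample labels call it kidney. The summed intensity of the proximal tubule markers ran from 14090 to 14800 in db/m, from 13700 to 14430 in db/db, and from 14130 to 14390 with TSF. The summed neutrophil markers (8 genes) reached 522.3 in db/db replicate 3, against 61.44 to 73.29 in the other 8 arrays. In whole tissue, fewer cells of a type and less RNA per cell cannot be told apart.

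Across the whole set, few matrix genes were called different between groups. In db/db against db/m, limma called 0 of 101 matrix genes at an adjusted p of 0.05, where 1.05% of all genes tested were called. At an unadjusted p under 0.05 the count was 20 of 101 (19.8%), 10 higher and 10 lower, against 13.9% of all genes. The 3 db/db arrays lay entirely above the 3 db/m arrays for 10 matrix genes (9.90%, against 10.4% of all genes) and entirely below for 13 (12.9%, against 8.28%). The median difference was -0.02 over the matrix genes and 0.01 over all genes, and the individual differences ran from -0.52 (Lamc3) to 0.80 (Col12a1). Without db/db replicate 1 the count was 1, Col3a1.

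The comparison of db/db+TSF with saline-treated db/db addresses the effect of the formula in diabetic mice. There limma called 0 of 101 matrix genes and 0% of all genes. At an unadjusted p under 0.05 there were 16 (15.8%, against 11.7% of all genes). The groups lay apart upward in 13 (12.9%, against 7.81%) and downward in 11 (10.9%, against 12.3%). The median was 0.04, beside -0.02 over all genes.

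Set against db/m, db/db+TSF had 2 of 101 matrix genes past the threshold (1.98%, against 3.13% of all genes), both higher, where 1.22% of all genes were called higher: Col27a1, a fibrillar collagen chain, and Thbs1, thrombospondin 1. At an unadjusted p under 0.05 there were 21 (20.8%, against 17.2%), and the groups lay apart upward in 10 (9.90%, against 9.76%) and downward in 11 (10.9%, against 12.4%). The median was -0.01, beside 0.00 over all genes. The count of 2 was 1 without db/m replicate 1 or either of db/db+TSF replicates 2 and 3, and 4 without db/db replicate 3. It was 4 with arrays shifted to a common median and 5 with array weights. The 3 comparisons share arrays, so their values for a gene are not independent of each other.

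**Figure D1:**
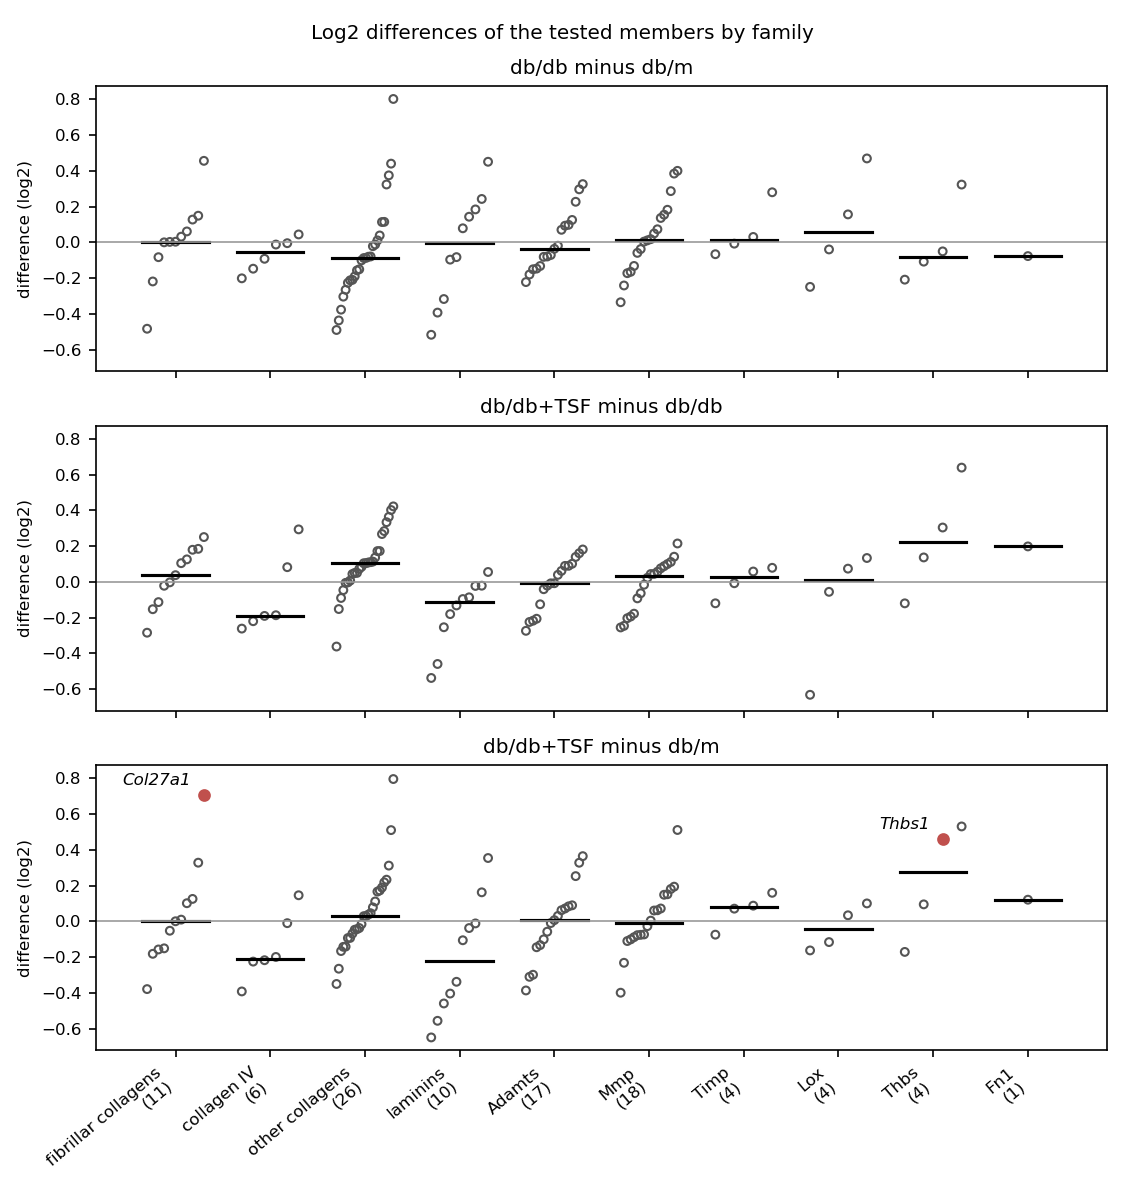
Each point is 1 tested matrix gene, placed by family (number tested in parentheses) on the horizontal axis and by its log2 difference between group means on the vertical axis, with 1 panel per comparison. Bars are family medians and filled points passed limma's threshold, which Col27a1 and Thbs1 did in db/db+TSF against db/m and no gene did in the other panels.

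The fibrillar collagens form the load-bearing fibres. All 11 were tested; 0 passed between db/db and db/m, 0 between db/db+TSF and db/db and 1 between db/db+TSF and db/m, with medians of 0.00, 0.04 and 0.00 in that order. Col27a1, best known from cartilage, measured 5.11, 5.37 and 5.29 in db/m, 5.64, 5.79 and 5.71 in db/db, and 5.87, 6.15 and 5.88 with TSF. The 3 groups did not overlap: every db/db array lay above every db/m array, and every db/db+TSF array above every db/db array. Its mean was 5.26 ± 0.14 in db/m, 5.71 ± 0.08 in db/db, and 5.97 ± 0.16 with TSF (SD, n = 3). The step from db/m to db/db+TSF was 0.71 (SE 0.11, 1.63-fold, limma adjusted p = 0.0073), and it passed in all 22 other fits in which it was recomputed, with adjusted p-values from 0.00655 to 0.0326. The steps from db/m to db/db (0.46, adjusted p = 0.0809) and from db/db to db/db+TSF (0.25, adjusted p = 0.412) did not pass.

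Col3a1 encodes type III collagen, a fibre component of interstitium and vessel walls, and Col1a1 and Col1a2 encode the 2 chains of type I collagen, the main protein of scar. Col3a1 measured 5.26, 5.32 and 5.09 in db/m, 5.01, 4.60 and 4.61 in db/db, and 4.81, 4.83 and 4.90 with TSF. All db/m values were above all values of the other groups, with a db/db difference of -0.48 (SE 0.12, limma adjusted p = 0.0916) that did not pass. Without db/db replicate 1, the highest of the db/db arrays, it was -0.62 (adjusted p = 0.0421). The db/db+TSF arrays lay within the db/db range, and their difference from db/m was -0.38 (adjusted p = 0.129).

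Type I collagen gave no call. Col1a1 measured 4.98, 4.99 and 4.99 in db/m, 5.35, 4.93 and 4.86 in db/db, and 5.02, 4.80 and 4.98 with TSF. Its db/db difference was 0.06 with a 95% interval of -0.22 to 0.34, and db/db replicate 1 alone stood above the rest. Col1a2 measured 5.35, 5.49 and 5.29 in db/m, 5.57, 5.39 and 5.55 in db/db, and 5.35, 5.004 and 5.30 with TSF. Each db/db+TSF array was below each db/db array, with a mean difference of -0.28 (interval -0.53 to -0.04, limma adjusted p = 0.382), while db/db and db/m overlapped. Both chains are of 1 molecule, and their differences had the same sign in each comparison, all within -0.28 to 0.13. The second, dimmer probe set of Col1a2 differed by 0.11 in db/db against db/m and by -0.11 in db/db+TSF against db/db.

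Beside these genes, the summed fibroblast and pericyte markers (8 of 8 measured) ran from 771.7 to 1030 in db/m, from 806.8 to 874.2 in db/db, and from 636.3 to 747.3 with TSF. Dcn, Pdgfrb and Pdgfra were the brightest of that list (means of 8.27, 7.89 and 7.18, the others 3.28 to 5.76), so the sum mostly follows them. Between db/db and db/m 5 of the 8 lay above 0, and Dcn (-0.26), Pdgfrb (-0.08) and Mfap5 (-0.10) lay below. Between db/db+TSF and db/db 1 of the 8 lay above 0. Adipocyte markers (5 of 6) ran from 481.5 to 794 in db/m, from 466.7 to 551.2 in db/db, and from 378.6 to 440.9 with TSF. Lpl was much the brightest of these 5, with a mean of 8.86 beside 2.93 to 3.78 for the others. Between db/db+TSF and db/db, 3 of the 5 lay above 0 (43.9% of all genes did), and Lpl (-0.34) and Retn (-0.04) lay below. The endothelial markers (8 of 8) ran from 2527 to 2687 over all arrays. No marker of these 3 lists passed in any comparison, and the part of these cells in the fibrillar collagen values was not tested.

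The promoters of 3 matrix genes are shown to let the sequence be read beside these values: Col27a1, the larger of the 2 called differences, Lama5, the matrix gene of smallest p in db/db against db/m, and Col3a1, the fibrillar collagen with the most negative difference there. They were picked after their values were seen. Each line gives the 250 bases before the annotated start, 5′ to 3′ on the gene's strand, from RefSeq on build GRCm38.p6, and capitals mark GGGCGG on either strand, the core letters of a GC box.

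Col27a1: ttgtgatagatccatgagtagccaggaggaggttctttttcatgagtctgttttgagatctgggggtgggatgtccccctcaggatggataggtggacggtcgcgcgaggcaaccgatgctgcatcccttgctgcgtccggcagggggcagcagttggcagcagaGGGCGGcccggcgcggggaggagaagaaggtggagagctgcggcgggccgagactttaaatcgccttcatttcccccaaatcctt

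Lama5: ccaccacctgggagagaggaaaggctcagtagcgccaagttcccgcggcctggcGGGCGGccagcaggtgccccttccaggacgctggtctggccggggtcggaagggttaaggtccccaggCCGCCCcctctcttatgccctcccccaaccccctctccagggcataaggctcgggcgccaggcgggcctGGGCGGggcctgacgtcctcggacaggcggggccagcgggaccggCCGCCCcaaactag

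Col3a1: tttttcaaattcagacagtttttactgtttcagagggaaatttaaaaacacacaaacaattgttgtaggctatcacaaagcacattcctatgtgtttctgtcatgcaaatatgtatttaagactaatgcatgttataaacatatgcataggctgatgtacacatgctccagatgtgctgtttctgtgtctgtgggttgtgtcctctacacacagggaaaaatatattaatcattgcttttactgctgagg

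These stretches lie at chr4:63215162-63215411 (plus strand), chr2:180225860-180226109 (minus strand) and chr1:45311288-45311537 (plus strand). GGGCGG occurred 1 time before Col27a1, 4 times before Lama5 and 0 times before Col3a1, where TATAAA, the letters of a TATA box, occurred 1 time. The table held 73 of the 106 matrix genes, and GGGCGG was in 54.8% of their stretches and in 32.9% of the 27025 genes' stretches of that length. CCAAT was in 30.1% and 34.5%, TATAAA in 20.5% and 13.0%, and TGANTCA, the letters of an AP-1 site, in 10.96% and 6.87%, each counted on both strands. A match is a description of letters, not of binding.

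**Figure D2:**
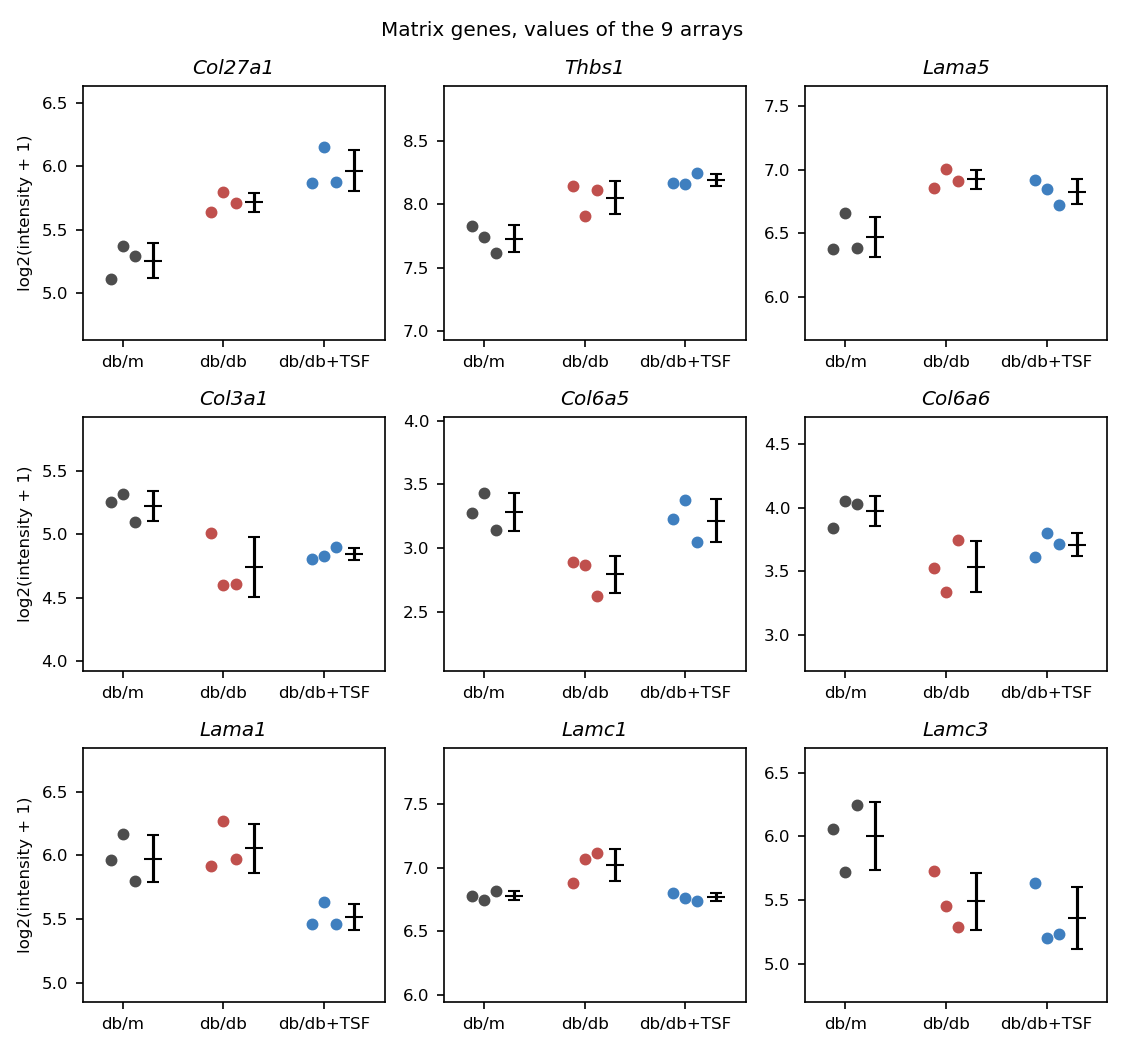
Each panel plots log2(intensity + 1) of 1 gene in the 9 arrays (points, in order of replicate number) with the group mean ± SD beside them (n = 3), and every panel spans 2 log2 units or 4-fold. Col27a1 is separate in all 3 groups and highest in db/db+TSF, Lama1 is low in the 3 db/db+TSF arrays, and Lamc1 is high in the 3 db/db arrays.

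Type IV collagen has 6 chains: alpha 1 and alpha 2 form the network found in all basement membranes, alpha 3, 4 and 5 the mature glomerular network, and alpha 5 and 6 occur in Bowman's capsule and some tubules. All 6 were tested and 0 passed in each comparison. Their medians were -0.05 for db/db against db/m, -0.19 for TSF against saline in db/db mice, and -0.21 for db/db+TSF against db/m.

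Col4a1 measured 5.80, 5.85 and 6.04 in db/m, 5.91, 5.78 and 5.98 in db/db, and 5.96, 5.58 and 5.48 with TSF. Col4a2 measured 5.60, 5.74 and 5.86 in db/m, 5.70, 5.76 and 5.87 in db/db, and 5.63, 5.50 and 5.42 with TSF. For this pair db/db and db/m differed by 0.00 and 0.04, and db/db+TSF minus db/db was -0.22 (limma adjusted p = 0.523) and -0.26 (adjusted p = 0.373), with db/db+TSF replicate 1 the highest of its group for both.

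Col4a3 measured 6.28, 6.22 and 6.32 in db/m, 6.06, 6.01 and 6.15 in db/db, and 6.04, 5.61 and 5.99 with TSF. Col4a4 measured 5.36, 5.59 and 5.20 in db/m, 5.26, 5.29 and 5.57 in db/db, and 5.29, 5.01 and 5.26 with TSF. Col4a3 was lower in each db/db array than in each db/m array, with a mean difference of -0.20 (SE 0.12, limma adjusted p = 0.474). With TSF the difference from db/m was -0.39 (adjusted p = 0.104), where replicate 2 was lowest for Col4a3 and Col4a4 alike. Col4a4 overlapped between all groups.

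Col4a5 measured 4.79, 4.70 and 4.74 in db/m, 4.74, 4.55 and 4.67 in db/db, and 4.73, 4.82 and 4.66 with TSF. Col4a6 measured 3.80, 3.67 and 3.76 in db/m, 3.54, 3.60 and 3.66 in db/db, and 3.76, 3.97 and 3.95 with TSF. Col4a5 overlapped between all groups, and Col4a6, a dim gene, was lowest in db/db, which db/db+TSF exceeded without overlap by 0.29 (limma adjusted p = 0.293). Between db/db+TSF and db/db the differences of the alpha 1 to alpha 4 chains were all below 0 and those of the alpha 5 and alpha 6 chains above 0, with intervals that reached 0 for all but Col4a2 and Col4a6.

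**Figure D3:**
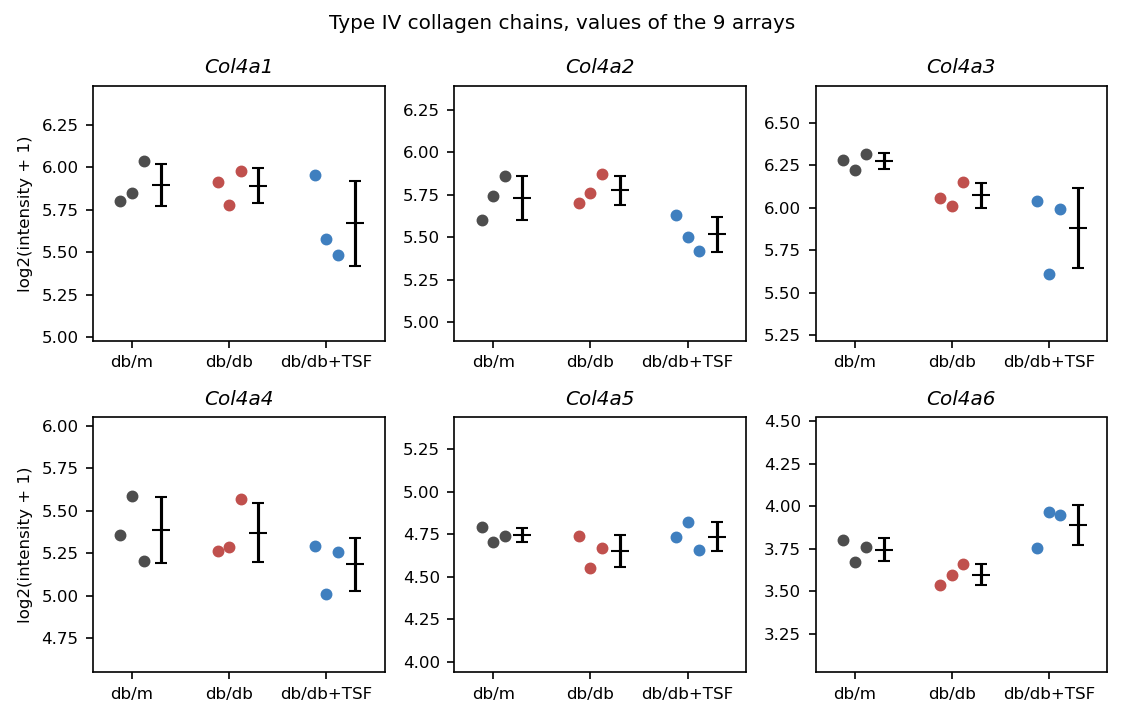
Each panel plots log2(intensity + 1) of 1 type IV collagen chain in the 9 arrays with the group mean ± SD (n = 3), over 1.5 log2 units. Group means of Col4a1 to Col4a4 are lowest in db/db+TSF, and the widest difference from db/m is -0.39 for Col4a3. No difference passed the threshold.

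The podocyte markers measured (6 of 8) had summed intensities from 719.4 to 813.8 in db/m, from 844.5 to 901.5 in db/db, and from 894.8 to 972.6 with TSF, and the mesangial and smooth muscle markers (8 of 8) from 1253 to 1337, from 1600 to 1631 and from 1448 to 1580. In the mesangial list 1 marker, Rgs5, passed between db/db and db/m (0.64) and between db/db+TSF and db/m (0.60). Rgs5 and Acta2 were the brightest of that list, with means of 8.96 and 8.78, so the sum mostly follows them. Between db/db and db/m 7 of its 8 markers lay above 0 (52.2% of all genes did), and Des lay below (-0.23). In the podocyte list 0 passed. Both cell types make basement membrane or mesangial matrix, and their part in the collagen IV and laminin values was not tested.

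Of the 26 other collagens tested, 0 passed in any comparison, with medians of -0.09, 0.10 and 0.03 in the order above. Between db/db and db/m 8 lay above 0 (52.2% of all genes did) and 18 below. Between db/db+TSF and db/db 20 lay above 0 (43.9% of all genes did), or 16 with arrays shifted to a common median. These include the beaded-filament type VI chains, the network type VIII, fibril-associated types such as XII and XIV, membrane-spanning types such as XXIII and XXV, and the basement-membrane types XV and XVIII, whose ends release anti-angiogenic fragments.

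Col6a5 and Col6a6, late-added chains of type VI collagen, are both dim genes. Col6a5 measured 3.27, 3.43 and 3.14 in db/m, 2.89, 2.87 and 2.63 in db/db, and 3.23, 3.37 and 3.04 with TSF. The db/db arrays were below all others, with a difference of -0.49 from db/m (SE 0.12, limma adjusted p = 0.0864), and db/db+TSF was 0.42 above db/db (adjusted p = 0.284). Col6a6 measured 3.84, 4.05 and 4.03 in db/m, 3.52, 3.34 and 3.74 in db/db, and 3.61, 3.80 and 3.71 with TSF. For this gene all db/m values were above all others, with a db/db difference of -0.44 (adjusted p = 0.11), but db/db and db/db+TSF overlapped.

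Col12a1, which decorates collagen fibres, measured 4.80, 4.49 and 4.42 in db/m, 5.05, 4.94 and 6.12 in db/db, and 5.80, 5.26 and 5.04 with TSF. Both db/db groups lay above db/m without overlap, by 0.80 and 0.80, the largest positive differences of any matrix gene tested in those comparisons. The SE was 0.28, wide against these sizes, and the limma adjusted p-values were 0.229 and 0.175. Without db/db replicate 3, which enters this comparison through the shared spread alone, the difference between db/db+TSF and db/m passed (limma adjusted p = 0.0416). Col8a1, a network collagen of vessels, measured 5.55, 5.65 and 5.52 in db/m, 6.23, 6.01 and 5.60 in db/db, and 6.09, 6.25 and 5.91 with TSF. Its db/db+TSF arrays lay above db/m by 0.51 (limma adjusted p = 0.0966), which also passed without db/db replicate 3 (0.0367), and its db/db replicate 3 was close to db/m.

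Col25a1, a membrane collagen, measured 3.81, 4.22 and 3.96 in db/m, 3.90, 3.77 and 3.69 in db/db, and 4.20, 4.16 and 4.19 with TSF. It separated db/db+TSF from db/db (0.40, limma adjusted p = 0.284) and not from db/m. Col15a1 measured 4.73, 4.25 and 4.27 in db/m, 4.01, 3.98 and 4.35 in db/db, and 4.05, 4.10 and 4.05 with TSF. Its difference of -0.35 between db/db+TSF and db/m, without overlap, did not pass (limma adjusted p = 0.23). Col18a1 measured 5.81, 5.76 and 5.88 in db/m, 5.73, 6.02 and 6.04 in db/db, and 6.06, 5.82 and 5.90 with TSF. It overlapped between all groups, with a db/db interval of -0.12 to 0.35. Of the collagens not given array by array, Col6a3 lay apart upward in all 3 comparisons (0.11, 0.11 and 0.22), and the fibrillar chain Col11a1 lay apart downward in both comparisons with db/m (-0.22 and -0.18). Col19a1 and Col23a1 lay apart downward in db/db (-0.27 and -0.38) and upward in db/db+TSF against db/db (0.17 and 0.28). Col9a2 lay apart upward in db/db+TSF against db/db alone (0.33). None of these passed.

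All 10 laminin chains measured were tested and 0 passed in each comparison. Their differences had medians of 0.00, -0.11 and -0.22, and the median size regardless of sign was 0.21 between db/db and db/m (0.11 over all genes), 0.11 between db/db+TSF and db/db (0.11) and 0.35 between db/db+TSF and db/m (0.12). With TSF 1 of the 10 lay above its db/db mean, where 43.9% of all genes did. That count was 0 with arrays shifted to a common median and 2 with quantile normalization. Lama5, the alpha chain of the mature glomerular laminin, measured 6.38, 6.66 and 6.38 in db/m, 6.86, 7.002 and 6.91 in db/db, and 6.92, 6.84 and 6.72 with TSF. Every db/db and db/db+TSF array was above every db/m array, by 0.45 (SE 0.10, limma adjusted p = 0.0691) and 0.36 (adjusted p = 0.0997), and the db/db+TSF and db/db arrays overlapped. It was the matrix gene of smallest p in db/db against db/m and did not pass in any of the 22 other fits at 0.05 (adjusted p-values from 0.0508 to 0.186).

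Lamb2, the beta chain of that trimer, measured 6.63, 6.82 and 6.78 in db/m, 6.83, 6.99 and 6.96 in db/db, and 6.96, 6.91 and 6.85 with TSF. Lamc1, the gamma chain shared by most laminins, measured 6.78, 6.74 and 6.82 in db/m, 6.88, 7.07 and 7.12 in db/db, and 6.80, 6.76 and 6.74 with TSF. Lamb1, the beta chain of the immature glomerular membrane, measured 8.03, 8.14 and 7.99 in db/m, 8.08, 8.19 and 8.33 in db/db, and 8.05, 8.01 and 7.995 with TSF. The db/db arrays were above the db/m arrays without overlap for Lamb2 (0.18, limma adjusted p = 0.401) and Lamc1 (0.24, adjusted p = 0.25), where 10.4% of all genes lay apart upward. For Lamb2 the nearest arrays were 6.83 and 6.82. With TSF, Lamc1 and Lamb1 were below every db/db array, with differences of -0.25 (limma adjusted p = 0.33) and -0.18 (adjusted p = 0.468), and differed from db/m by -0.01 and -0.04. The differences of Lama5 and Lamb2 between db/db+TSF and db/db were -0.10 and -0.02.

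Lama1, an alpha chain of early and tubular basement membranes, measured 5.96, 6.16 and 5.80 in db/m, 5.91, 6.27 and 5.98 in db/db, and 5.46, 5.64 and 5.46 with TSF. The db/m and db/db arrays overlapped and all 3 db/db+TSF arrays lay below both, with a difference of -0.54 from db/db (SE 0.13, limma adjusted p = 0.239), the smallest unadjusted p of any matrix gene in that comparison, and of -0.46 from db/m (adjusted p = 0.0797). The Lama1 difference from db/m passed with arrays shifted to a common median (limma adjusted p = 0.0447), with array weights (0.0349) and with the replicate block (0.0434). Lamc3, another gamma chain, measured 6.06, 5.72 and 6.25 in db/m, 5.73, 5.46 and 5.28 in db/db, and 5.64, 5.20 and 5.23 with TSF. Its mean was highest in db/m: db/db differed from it by -0.52 (limma adjusted p = 0.186) with overlap and db/db+TSF by -0.65 (adjusted p = 0.0636) without overlap. The latter passed without db/m replicate 2 (0.0421) or db/db+TSF replicate 1 (0.0458). The other laminins, Lama2, Lama3, Lama4 and Lamb3, had differences between -0.56 and 0.06 over the 3 comparisons, the lowest being Lama4 in db/db+TSF against db/m, which passed with array weights and without db/m replicate 3. The db/db+TSF arrays of Lama4 overlapped db/m and lay below db/db without overlap (-0.46, limma adjusted p = 0.36). Lama2, the alpha chain of muscle laminin, lay below db/m without overlap in db/db (-0.32) and with TSF (-0.40).

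Fibronectin and the thrombospondins are matrix glycoproteins, and thrombospondin 1 is known as an activator of latent TGF-beta. The 4 thrombospondins were tested, and 1 passed, in db/db+TSF against db/m. Their medians were -0.08, 0.22 and 0.28 in the order above. Fn1 measured 7.97, 7.74 and 7.63 in db/m, 7.59, 7.69 and 7.83 in db/db, and 8.17, 7.79 and 7.75 with TSF. The groups overlapped, the db/db difference was -0.08 with a 95% interval of -0.37 to 0.21, and the db/db+TSF difference from db/db was 0.20 (interval -0.09 to 0.49). Thbs1 measured 7.83, 7.74 and 7.62 in db/m, 8.14, 7.90 and 8.11 in db/db, and 8.17, 8.16 and 8.24 with TSF. The 3 groups did not overlap and stood in the same order as for Col27a1, with means of 7.73 ± 0.11, 8.05 ± 0.13 and 8.19 ± 0.05 (SD, n = 3). The nearest db/db and db/db+TSF arrays were all but tied, at 8.144 and 8.157.

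The Thbs1 difference between db/db+TSF and db/m was 0.46 (SE 0.10, 1.38-fold, limma adjusted p = 0.0306), and the steps to db/db (0.32, adjusted p = 0.156) and from db/db (0.14, adjusted p = 0.61) did not pass. The call was lost with the replicate block (0.0562) and, by limma's adjusted p, on leaving out db/m replicate 1 (0.0557), 2 (0.0698) or 3 (0.0697) or db/db+TSF replicate 1 (0.07), 2 (0.0883) or 3 (0.118). Thbs4, a thrombospondin of tendon and muscle, measured 3.62, 4.16 and 3.86 in db/m, 3.91, 3.86 and 3.55 in db/db, and 4.14, 4.62 and 4.48 with TSF. It lay apart between db/db+TSF and db/db (0.64, limma adjusted p = 0.273), the largest positive difference of a matrix gene in that comparison. Thbs3 measured 4.55, 4.18 and 4.23 in db/m, 3.96, 4.19 and 4.19 in db/db, and 4.29, 4.25 and 4.72 with TSF. It differed there by 0.30 (limma adjusted p = 0.442), and Thbs2 was the 1 thrombospondin below 0 there, at -0.12.

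Lysyl oxidases form the cross-links that stiffen collagen. The 4 tested were Lox, Loxl1, Loxl3 and Loxl4, and 0 passed. Lox measured 4.03, 4.26 and 3.95 in db/m, 4.18, 4.39 and 5.08 in db/db, and 3.99, 3.80 and 3.96 with TSF. The db/db+TSF arrays were below every db/db array, with a difference of -0.63 (SE 0.19, limma adjusted p = 0.286), the most negative of any matrix gene tested in that comparison. Without db/db replicate 3 it was -0.37 (adjusted p = 0.342). Loxl4 measured 5.01, 4.72 and 5.27 in db/m, 4.90, 4.52 and 4.84 in db/db, and 4.88, 4.93 and 4.85 with TSF. All its groups overlapped, and the differences of Loxl1 and Loxl3 lay between -0.06 and 0.16.

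The ADAMTS proteases include the procollagen processor Adamts3, proteoglycan-cutting Adamts1 and Adamts4, and several enzymes with few known substrates. Of 18 measured, 17 were tested and 0 passed, with medians of -0.04, -0.01 and 0.01. Adamts1 measured 7.83, 7.75 and 7.55 in db/m, 7.48, 7.62 and 7.92 in db/db, and 7.67, 7.15 and 7.38 with TSF. Its db/db+TSF difference from db/m was -0.31 (interval -0.64 to 0.02), with replicate 2 lowest. Adamts3 measured 3.06, 3.09 and 3.03 in db/m, 3.31, 3.23 and 3.54 in db/db, and 3.13, 3.16 and 3.12 with TSF. It was dim and highest in db/db, by 0.30 from db/m (limma adjusted p = 0.188) and db/db+TSF minus db/db was -0.22 (adjusted p = 0.405), without overlap in either.

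Adamts6 measured 4.90, 5.50 and 4.79 in db/m, 5.22, 5.42 and 5.53 in db/db, and 5.34, 5.56 and 5.39 with TSF. The db/m and db/db+TSF arrays overlapped through db/m replicate 2, and without that array the difference was 0.58 and passed (limma adjusted p = 0.0414). Adamts16 measured 4.40, 4.58 and 4.53 in db/m, 4.64, 4.97 and 4.58 in db/db, and 4.57, 5.005 and 4.92 with TSF. Adamts14, another procollagen processor, measured 4.34, 4.63 and 4.48 in db/m, 4.57, 4.62 and 4.53 in db/db, and 4.64, 4.90 and 4.67 with TSF. Both were highest in db/db+TSF on average, by 0.33 (limma adjusted p = 0.245) and 0.25 (adjusted p = 0.247) from db/m. The second probe set of Adamts14 differed by -0.01 there. Adamts20 measured 2.79, 2.78 and 2.83 in db/m, 2.57, 2.596 and 2.77 in db/db, and 2.81, 2.79 and 2.89 with TSF. Its values sit close to the filter, and its db/db arrays were below all others, with a difference of -0.15 from db/m (limma adjusted p = 0.484). The nearest arrays were all but tied, at 2.7749 in db/db replicate 3 and 2.7752 in db/m replicate 2.

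Of 21 Mmp genes measured, 18 were tested and 0 passed, with medians of 0.01, 0.03 and -0.01. Mmp2, a gelatinase that cuts type IV collagen and is made by stromal cells, measured 5.69, 5.61 and 5.69 in db/m, 6.01, 5.91 and 5.93 in db/db, and 5.98, 5.94 and 5.66 with TSF. The db/db arrays lay above the db/m arrays without overlap, by 0.29 (SE 0.10, limma adjusted p = 0.227), and db/db+TSF overlapped both. Mmp14, the membrane protease that activates the Mmp2 precursor, measured 5.71, 5.87 and 5.65 in db/m, 5.60, 5.90 and 5.61 in db/db, and 5.76, 5.39 and 5.38 with TSF. All its groups overlapped, with a db/db interval of -0.32 to 0.25. Mmp9, the other gelatinase and a neutrophil product, measured 3.86, 4.07 and 3.98 in db/m, 3.71, 3.95 and 5.41 in db/db, and 3.99, 4.19 and 4.28 with TSF. It lay between 3.71 and 4.28 in 8 arrays and at 5.41 in db/db replicate 3, and its db/db difference of 0.38 was -0.14 without that array.

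Mmp10, a stromelysin, measured 3.83, 3.73 and 3.63 in db/m, 3.33, 3.33 and 3.53 in db/db, and 3.22, 3.38 and 3.40 with TSF. Every db/m array was above every other array, with differences of -0.34 for db/db (limma adjusted p = 0.149) and -0.40 for db/db+TSF (adjusted p = 0.0551). The latter passed with a common median (limma adjusted p = 0.0311), quantile normalization (0.0281) and array weights (0.0333). Mmp19 measured 3.73, 3.97 and 3.42 in db/m, 3.79, 4.12 and 4.41 in db/db, and 4.42, 4.12 and 4.13 with TSF. It was higher in db/db+TSF than in db/m without overlap (0.51, limma adjusted p = 0.154). Mmp28, a protease of epithelia, measured 3.71, 4.16 and 4.16 in db/m, 4.20, 4.20 and 4.11 in db/db, and 4.08, 3.78 and 3.88 with TSF. Its db/db+TSF arrays were below its db/db arrays (-0.25, limma adjusted p = 0.468).

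Mmp27 measured 3.09, 2.74 and 3.03 in db/m, 2.63, 2.84 and 2.67 in db/db, and 3.01, 2.84 and 2.94 with TSF. It is dim and overlapped between all groups. Of the remaining Mmp genes, Mmp3 averaged 2.78, Mmp12 2.71 and Mmp20 2.67, close to the filter, and Mmp1a, Mmp1b and Mmp13 lay under it. The second, dimmer probe set of Mmp11 differed by -0.42 in db/db+TSF against db/db and by -0.49 against db/m, beside 0.04 and -0.09 for the first, and it passed against db/m where the most variable probe set stood for each gene. Macrophages are one source of Mmp12, and their summed markers (8 of 8) ran from 622.4 to 656.4 in db/m, from 510.2 to 601.8 in db/db, and from 427 to 505.6 with TSF, with 0, 0 and 4 of the 8 called in the comparisons in the order above. Their part in the protease values was not tested.

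All 4 Timp genes were tested and 0 passed in each comparison, with medians of 0.01, 0.03 and 0.08. Timp3, the matrix-bound inhibitor that the kidney expresses strongly, measured 11.22, 11.16 and 11.17 in db/m, 11.14, 11.16 and 11.05 in db/db, and 11.15, 11.04 and 11.14 with TSF. Its db/db difference was -0.07, with a 95% interval of -0.25 to 0.12, and every db/m array lay above every other array, by narrow margins. Timp2, which also takes part in Mmp2 activation, measured 7.32, 7.54 and 7.68 in db/m, 7.48, 7.53 and 7.502 in db/db, and 7.75, 7.49 and 7.51 with TSF. Its db/db interval was -0.25 to 0.24. Timp1, the inducible member often raised in fibrosis, measured 2.95, 3.04 and 2.94 in db/m, 2.95, 2.98 and 3.09 in db/db, and 2.99, 3.01 and 3.20 with TSF. It was dim in every array, at 2.94 to 3.20, with a db/db interval of -0.17 to 0.23. Timp4 measured 3.10, 3.46 and 3.34 in db/m, 3.66, 3.29 and 3.78 in db/db, and 3.95, 2.89 and 3.54 with TSF. It ranged from 2.89 to 3.95 within db/db+TSF, more widely than the group means differed.

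The array of db/db replicate 3 stood apart in several matrix genes. A gap over 0.5 to the next highest array, a size picked after the values were seen, was found in that array for 4 of 101 matrix genes (3.96%) and for 0.524% of all genes, in db/m replicate 3 for 1 (Lamb3, at 4.51), and in the other 7 arrays for 0. The 4 were Mmp9, Col6a2, Lox and Adamts4. Col6a2 measured 5.35, 5.55 and 5.49 in db/m, 5.51, 5.59 and 6.62 in db/db, and 5.76, 5.29 and 5.58 with TSF. Adamts4 measured 4.29, 4.24 and 4.28 in db/m, 3.58, 3.81 and 4.87 in db/db, and 4.09, 4.03 and 3.53 with TSF. Col6a1, the partner chain of Col6a2, measured 6.64, 6.36 and 6.38 in db/m, 6.51, 6.39 and 7.45 in db/db, and 6.97, 6.67 and 6.45 with TSF. Col6a1 was highest in the same array, and its second probe set measured 4.39 there against a mean of 3.67.

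Without db/db replicate 3 the db/db difference from db/m went from 0.44 to 0.08 for Col6a2, from 0.32 to -0.01 for Col6a1, from 0.47 to 0.21 for Lox, from 0.80 to 0.43 for Col12a1 and from -0.18 to -0.57 for Adamts4. None of these 5 passed with or without it. It is the array with the high neutrophil marker sum given above. It also had the highest sum of the markers listed as medullary, 6432 against 4104 to 5633 in the other 8. Umod and Slc12a1 were the brightest of the 5 medullary markers (means of 11.72 and 10.12, the others 5.50 to 8.60). The same array had the lowest proximal tubule sum, 13700 against 14090 to 14800. The part of these cells in its matrix gene values was not tested.

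**Figure D4:**
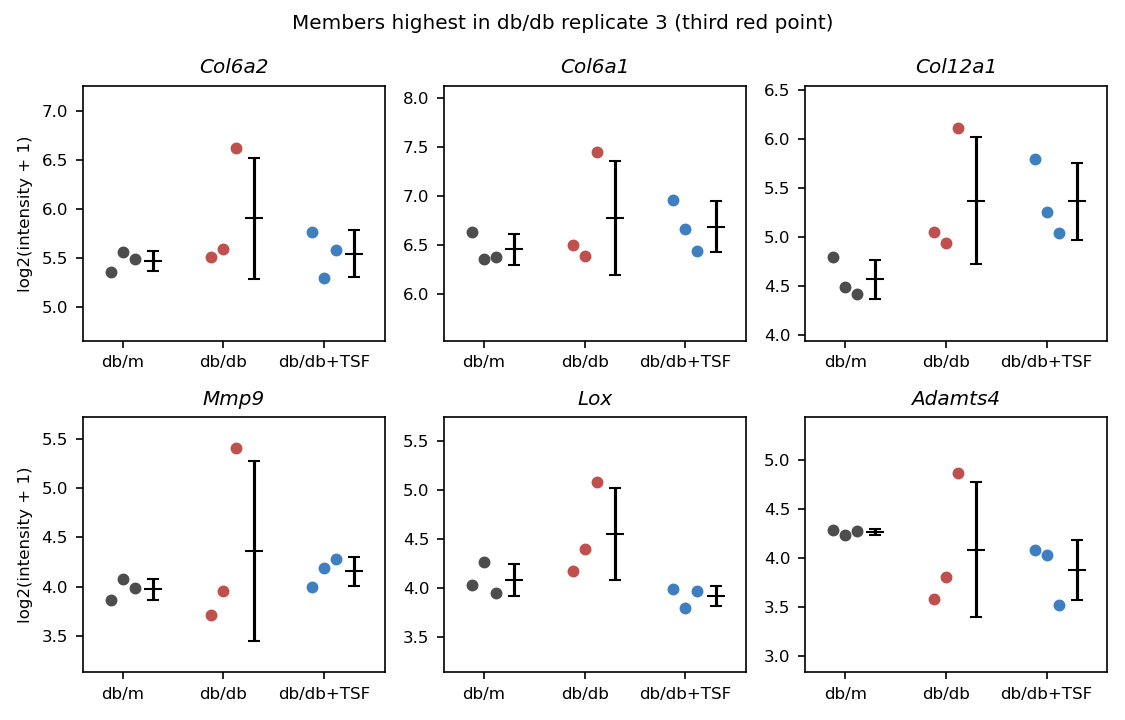
Each panel plots log2(intensity + 1) of 1 matrix gene in the 9 arrays with the group mean ± SD (n = 3), over 2.6 log2 units. The third db/db point is the highest of the 9 in all 6 panels, at 6.62 for Col6a2 and 5.41 for Mmp9.

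Several matrix genes are neighbours in the genome, which the choice by symbol did not use. In the RefSeq gene order (GRCm38.p6), 17 pairs of the 106 were next to each other, among them Col4a1 with Col4a2, Col4a3 with Col4a4, Col4a5 with Col4a6, Col6a1 with Col6a2, Col3a1 with Col5a2, and the runs Col6a4, Col6a5 and Col6a6 and Mmp13, Mmp12, Mmp1b, Mmp3, Mmp1a and Mmp10. The 3 chains of the Col6a4 run differed by -0.23, -0.49 and -0.44 in db/db against db/m. Col5a2 differed by 0.00 beside -0.48 for its neighbour Col3a1. Col6a1 and Col6a2 shared the high value in db/db replicate 3.

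Other genes of the pathway were taken from 4 lists chosen by name, whose counts stand beside 1.05% of all genes called between db/db and db/m, 0% between db/db+TSF and db/db, and 3.13% between db/db+TSF and db/m. Of 42 tested partners in the matrix (nidogens, proteoglycans, elastic fibre genes), 0 passed between db/db and db/m and 0 between db/db+TSF and db/db, while 3 fell in db/db+TSF against db/m: Fmod (-1.43), a collagen-binding proteoglycan, Smoc2 (-0.91), a matricellular protein, and Fras1 (-0.44), a basement membrane protein. Of 23 collagen-processing genes, Colgalt2, which adds galactose to collagen, rose by 0.50 in db/db (limma adjusted p = 0.0305), and Crtap (-0.58), of the prolyl 3-hydroxylase complex, and Pxdn (-0.59), which cross-links type IV collagen, fell in db/db+TSF against db/m. Between db/db+TSF and db/db 20 of these 23 lay below 0, with a median of -0.14, and 0 passed. In that comparison 43.9% of all genes lay above 0, with a median of -0.02.

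Of 26 matrix receptor and adhesion genes, 1 fell in db/db+TSF against db/m, the integrin chain Itgb6 (-0.73), and 0 passed in the other comparisons. Of 25 other proteases and inhibitors, Adamtsl3, an ADAMTS-like matrix protein, rose in db/db (0.49, limma adjusted p = 0.0399) and, against db/m, with TSF (0.72, adjusted p = 0.0033). The urokinase gene Plau (-0.89) and the macrophage cathepsin Ctss (-0.45) fell in db/db+TSF against db/m. Adjusted p-values of the 8 falls named here ran from 0.0153 (Fmod) to 0.0444 (Pxdn). Among them, db/db+TSF replicate 2 was the lowest of its group for Fmod, Smoc2, Crtap, Itgb6 and Plau, and replicate 3 for Fras1 and Pxdn. Plau measured 8.23 in replicate 2, against 9.14 and 9.06 in replicates 1 and 3. The medullary markers summed to 4104 in replicate 2, against 5633 and 5358. How far the falls depend on that array was not tested. The median differences between db/db+TSF and db/m were -0.02 for the matrix partners, -0.18 for collagen processing, 0.01 for receptors and 0.01 for the other proteases, beside 0.00 over all genes.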

How the data were processed

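RNA of 9 kidneys was hybridised, 1 per Affymetrix array, with 3 arrays in each of 3 groups. The authors deposited 1 linear intensity per probe set and array. Transcriptome Analysis Console and Affymetrix Expression Console were used, per the submitters' processing notes. Which normalization and which build were applied is not given in the sources used here. These deposited intensities were used as log2(value + 1) with no further normalization. The number of arrays limits the precision, and p-values set group differences against the spread between these samples.

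Gene symbols came from the platform annotation, and probe sets with several symbols were left out. The brightest of a gene's probe sets was kept, and 17740 genes with a mean at or above the 30th percentile of 41345 probe sets were fitted with limma 3.58.1 (R 4.3.3; lmFit and eBayes, 1 mean per group, all 9 arrays). P-values were adjusted by Benjamini-Hochberg over these genes, with a threshold of 0.05, and intervals are 95%. The fit was tested on simulated data. Array values are given for matrix genes past the threshold, for the 2 of smallest p per family and comparison, and for a list of central matrix genes, 47 in all. They are also given for Col6a2 and Adamts4, chosen after their values in db/db replicate 3 were seen. The genes and lists were chosen with earlier results of these data known. 1 Mmp symbol is not reported here.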

Additional observations from a re-analysis of the deposited data

How the results depend on the processing

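Each comparison was refitted with other probe set choices, filters, scalings, variance models, pseudocounts and sets of arrays. In db/db+TSF against db/db the count of matrix genes past the threshold was 0 in every refit. In db/db against db/m it was 0, except 4 at an adjusted p of 0.1 (Col27a1, Col3a1, Col6a5 and Lama5) and a range of 0 to 1 on leaving out each array. In db/db+TSF against db/m it was 2, against 3 with quantile normalization (also Mmp10), 3 with the most variable probe set (also Mmp11), 4 with arrays shifted to a common median (also Lama1 and Mmp10), 5 with array weights (also Lama1, Lama4 and Mmp10), 7 at an adjusted p of 0.1, and 1 to 4 on leaving out each array. The cause was not tested. With the replicate block the counts were 0, 0 and 2 (Col27a1 and Lama1), and Thbs1 had an adjusted p of 0.0562 by limma. Deviations of same-numbered arrays from their group means correlated between -0.08 and 0.15, so the numbers were not taken to pair the mice. No called difference of a named gene changed sign. The median over the matrix genes in db/db+TSF against db/db was 0.04, but -0.02 with a common median. Leaving out symbols of unrelated genes was not run, because the pattern caught none.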
